A study of Mus musculus with 4 samples.

Results

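Gene expression was compared between PKA-activated and WT mammary tumor cells of MMTV-PyMT mice, class by class. Each class had equal weight, so that the different class sizes of the tumors did not set the result. Cell makeup within a class could still differ between the tumors. The cells compared were all annotated cells of 2 single-cell RNA libraries, 2638 from the PKA tumor library and 5181 from the WT tumor library. Together they were 7819 of the 15445 annotated cells of the study. UMIs (unique molecular identifiers, which count captured RNA molecules) were summed over the cells of each authors' class and library, and expressed as CPM, counts per 1000000 UMIs of that sum. Genes were then sorted into those that differed the same way in all 4 classes and those that differed in a single class.

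Both groups carried the MMTV-PyMT transgene, in which the mouse mammary tumor virus promoter drives the polyoma middle T oncoprotein in mammary epithelium. The PKA group had activated protein kinase A signaling and the WT group was wild type in that respect. The labels do not say how PKA was activated or in which cells. The mice were 16 to 20 weeks old by the labels of the tumor samples, whereas the design text of the series has 22 weeks. Tumors were minced, digested with collagenase and hyaluronidase and sorted by FACS, with the sorted population not described. Each group was 1 library, the number of mice behind it is not stated, and mouse, tumor, library and genotype cannot be told apart. Hyperplastic glands of PKA and WT mice of 8 to 9 weeks, also 1 library each and digested further with trypsin and dispase, were used only to set beside tumor values. With 1 library per group, no difference below has a replicate check or a p-value. The intervals are exact 95% intervals that cover counting error only, and they do not allow for RNA molecules that come from the same few cells.

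Protein kinase A is an enzyme of catalytic subunits held inactive by regulatory subunits, which release them when cAMP rises. The catalytic subunits phosphorylate many proteins, among them the transcription factor CREB, which binds cAMP response elements in promoters. In the mammary epithelium, luminal progenitors give rise to milk-producing cells, mature luminal cells carry hormone receptors, and basal cells line the outside of the duct. Lumino-Basal and EMT-like are the authors' names for cells with mixed luminal and basal markers and for cells with markers of epithelial-mesenchymal transition.

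The classes had very different sizes in the libraries. Luminal Progenitor 1 cells were 2157 (81.8% of cells, 95% interval 80.2 to 83.2%) in the PKA library and 2343 (45.2%) in the WT library. Mature Luminal cells numbered 177 (6.71%) and 872 (16.8%), Lumino-Basal cells 66 (2.5%) and 1198 (23.1%), and EMT-like cells 238 (9.02%) and 768 (14.8%). The sums behind the ratios were 16758734 UMIs in the PKA library and 24499374 in the WT library. Depth was thinnest in the Lumino-Basal cells of the PKA library, where 409700 UMIs were summed and 1 UMI was worth 2.44 CPM, against 0.150 CPM in WT. The median UMIs per cell were higher in PKA in every class, from 5918.5 against 5314.5 in Lumino-Basal to 8362 against 5492 in Mature Luminal. The libraries shared 16 cell barcodes.

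**Figure D1:**
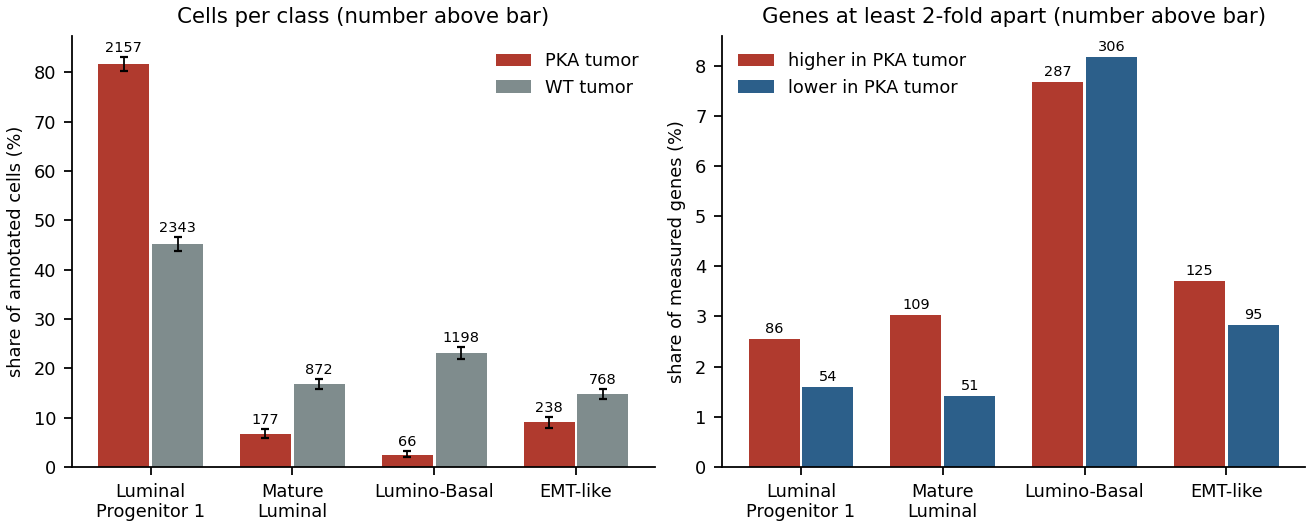
Left, share of annotated cells (%) in each class in the PKA and WT tumor libraries, with exact 95% intervals and cell numbers above the bars; right, share of measured genes (%) at least 2-fold higher or lower in PKA tumor, with gene numbers above the bars. The Lumino-Basal class, with 66 PKA cells, had the most genes apart, 287 higher and 306 lower.

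The markers that define the classes were checked first. Foxa1, a transcription factor of hormone-sensing luminal cells, was at 396 CPM in PKA and 434 in WT Mature Luminal cells, against 2.17 and 4.29 CPM in Luminal Progenitor 1 cells. Krt14, a basal keratin, stood at 727 CPM in PKA and 948 in WT Lumino-Basal cells. Krt8, a luminal keratin, was at 2770 and 2012 there, and Cd14 at 644 and 450. Luminal Progenitor 1 cells also had Krt14, at 236 and 327 CPM, and had more Cd14, at 1302 and 1017. Krt5, another basal keratin, had 0 and 13.03 CPM in Lumino-Basal cells, and Snai2 had 0 in both libraries. A list of 16 basal genes summed to 2294 and 3249 CPM in Lumino-Basal cells, against 907 and 1144 in Luminal Progenitor 1 cells. Of the authors' 4 EMT-like markers, Trim29 and Cldn6 had no UMI in either library in that class, Vim, the mesenchymal filament vimentin, was at 25.8 CPM in PKA and 10.6 in WT, and Sox4, a transcription factor, was at 340 and 244 CPM. EMT-like cells had 42614 and 52616 CPM of the milk protein gene Csn3, above the 27970 and 35896 CPM of Luminal Progenitor 1 cells, and the class is called EMT-like below only after the authors' annotation. Fibroblast markers (12 genes) summed to 137 CPM in PKA and 153 in WT Luminal Progenitor 1, 269 and 1516 in Mature Luminal, 1989 and 271 in Lumino-Basal, and 153 and 119 in EMT-like cells. Dcn alone had 681 and 47.8 CPM in Lumino-Basal and 27.9 and 900.05 CPM in Mature Luminal cells, Mgp had 967 and 12.3 CPM in Lumino-Basal cells, and Col3a1 was at 0 UMIs in Mature Luminal and EMT-like cells of both libraries. Their part in the Lumino-Basal and Mature Luminal results was not tested.

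A joint clustering of both libraries (Leiden method, 18 clusters) placed the same class of the 2 libraries in partly different clusters. PKA Luminal Progenitor 1 cells lay mostly in clusters 2, 3 and 4 (831, 532 and 428 cells) and WT cells in clusters 1, 7 and 8 (756, 647 and 288 cells). Of the EMT-like cells, 145 from PKA lay in cluster 2, whereas those from WT lay in clusters 1, 9 and 7 (307, 256 and 142 cells). PKA Lumino-Basal cells were mainly in cluster 11 (47 cells) and WT cells in cluster 10 (816), with 198 WT cells in cluster 11. Mature Luminal cells of both libraries shared clusters 6 (122 PKA and 455 WT cells) and 15 (55 and 415). Dcn, a fibroblast gene, was among the 10 leading genes of PKA Lumino-Basal cells. None of the class markers was, which also held for WT Lumino-Basal, WT Luminal Progenitor 1 and EMT-like cells of both libraries. Because of Dcn, many Lumino-Basal values are also given within cluster 11. In that cluster 242 of 3773 measured genes were at least 2-fold higher in PKA (6.41%) and 247 lower (6.55%), with an all-gene median of -0.09.

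A gene was called measured in a class where its mean CPM over the 2 libraries was at least 50, and differences are log2 ratios of (CPM + 10), PKA over WT, with 2-fold being a log2 ratio of 1. In Luminal Progenitor 1 cells 86 of 3372 measured genes were at least 2-fold higher in PKA (2.55%) and 54 were lower (1.6%). In Mature Luminal cells 109 of 3599 were higher (3.03%) and 51 lower (1.42%). In Lumino-Basal cells 287 of 3741 were higher (7.67%) and 306 lower (8.18%), and in EMT-like cells 125 of 3370 were higher (3.71%) and 95 lower (2.82%). The all-gene median was -0.12, -0.03, -0.05 and -0.03 in the 4 classes in this order. The balance of higher and lower genes depended on the scaling. Over the genes measured in each class, TMM factors moved the median by -0.18 in Mature Luminal, -0.16 in Lumino-Basal and -0.11 in EMT-like cells, and the split of higher and lower genes became 60 and 89, 219 and 429, and 92 and 136. Centring Luminal Progenitor 1 ratios on their median, a shift of 0.12, gave 114 higher and 43 lower.

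Of the 2586 genes measured in all 4 classes, 24 were at least 2-fold higher in PKA in every class (0.928%) and 1 was lower in every class (0.0387%). The higher genes included the acute-phase apolipoprotein Saa1, the peptide-amidating enzyme Pam, the actin-monomer binder Tmsb10 and the metal-binding Mt1. Also among them were genes of small mitochondrial proteins and 12 genes named for ribosomal proteins. The lower gene was Alad, which makes porphobilinogen in heme synthesis. With Lumino-Basal cells limited to cluster 11, 23 of the 24 remained, and Alad fell below the minimum level there (ratio -1.37, on 6 UMIs in PKA). With TMM factors 12 genes were higher and 2 lower in every class. Pam and the mitochondrial genes Cox6c, Atp5k, Tomm7 and Romo1 were not among these 12. Within the 6 Leiden clusters that held at least 50 cells of both libraries, 10 of the 24 were at least 2-fold higher in each. These 6 hold mainly Luminal Progenitor 1 and Mature Luminal cells. Genes under 2-fold in at least 1 of them included Saa1 (0.48 in cluster 4), Pam (0.56 in cluster 8), Mt1 (0.91 in cluster 4), Wdr89 (0.66 in cluster 3) and AC121965.1 (0.67 in cluster 2), and Alad was at -0.94 in cluster 2. By sign alone, 383 genes (14.8%) were above 0 in every class and 655 (25.3%) were below.

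Saa1 (chr7:46740497-46742980, minus strand, GRCm38) had the largest mean ratio of the 24. Luminal Progenitor 1 cells had 2813 CPM in PKA and 423 in WT, a 6.64-fold difference (6.44 to 6.86). Mature Luminal cells had 468 and 53.3 CPM (8.79-fold, 7.61 to 10.2), and EMT-like cells 1818 and 177 CPM (10.3-fold, 9.25 to 11.4). In Lumino-Basal cells Saa1 stood at 766 CPM in PKA and 34.9 in WT, 22.0-fold higher (18.5 to 26.1). PKA was the higher library in each class, but the RNA lay in few cells in some of them: the 5 cells with the most UMIs held 94.6% of Saa1 UMIs in PKA Mature Luminal, 95.2% in PKA Lumino-Basal and 69.0% in PKA EMT-like cells, against 9.51% in PKA Luminal Progenitor 1 cells. In WT the shares were 86.2% in Mature Luminal, 43.3% in Lumino-Basal, 38.6% in EMT-like and 21.1% in Luminal Progenitor 1 cells. Saa1 was detected in 91 of the 238 PKA EMT-like cells. Saa1 in Mature Luminal cells was 16.7% of its Luminal Progenitor 1 level in PKA and 12.6% in WT, whereas the progenitor gene Csn3 was at 5.89% and 3.99%. With 10% of the library profile subtracted from each class as free RNA, the mean of its class ratios was 3.25, against 3.26 without, and 22 genes were higher in every class. Saa2, a near-identical neighbour of Saa1, may share reads with it, so the split of counts between them is uncertain.

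Pam, which amidates the ends of secreted peptides, lies at chr1:97795114-98095646 on the minus strand. It was at 318 CPM in PKA and 78.1 in WT Luminal Progenitor 1 cells, and at 316 and 83.4 CPM in EMT-like cells. Mature Luminal cells had 184 and 85.8 CPM, just past the threshold at a log2 ratio of 1.02 (2.15-fold, 1.83 to 2.51). The difference was widest in Lumino-Basal cells, with 361 CPM in PKA and 35.5 in WT (10.2-fold, 8.23 to 12.6). No class of the WT library reached the level of any class of the PKA library.

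Tmsb10 (chr6:72957347-72958748, minus strand) encodes thymosin beta 10, a small protein that binds actin monomers. Its level was 604 CPM in PKA and 164 in WT Luminal Progenitor 1 cells, 519 and 176 in Mature Luminal cells, 1333 and 263.6 in Lumino-Basal cells, and 496 and 116 in EMT-like cells. The fold differences ran from 2.95 (2.67 to 3.26) in Mature Luminal to 5.06 (4.58 to 5.57) in Lumino-Basal cells. Mt1 (chr8:94179082-94180327, plus strand) encodes a metallothionein that binds zinc and copper. It had 792 CPM in PKA and 349 in WT Luminal Progenitor 1 cells, 1419 and 393 in Mature Luminal, 1216 and 410 in Lumino-Basal, and 611 and 195 in EMT-like cells. Its highest ratio was in Mature Luminal cells (3.61-fold, 3.39 to 3.85) and its lowest in Luminal Progenitor 1 cells (2.27-fold, 2.18 to 2.35). For both genes every PKA class was above every WT class.

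The other named genes of the set mostly encode small proteins of mitochondria. Cox6c, a subunit of cytochrome c oxidase, had log2 ratios of 1.35, 1.23, 1.01 and 1.71 in Luminal Progenitor 1, Mature Luminal, Lumino-Basal and EMT-like cells, from 405, 538, 427 and 528 CPM in PKA against 153, 223, 207 and 155 in WT. Atp5k, a subunit of ATP synthase, had 85.1, 114, 92.8 and 94.1 CPM in PKA and 27.2, 45.5, 34.1 and 40.1 in WT in the same order. Tomm7, a subunit of the outer-membrane import channel, had ratios of 1.13 to 1.37, and Romo1, a small inner-membrane protein, of 1.11 to 1.40. These 4 differences were more even across the classes than that of Saa1. Wdr89, a WD-repeat protein, had ratios of 1.27 to 1.55, and AC121965.1, a gene without a name, of 1.16 to 1.3. The remaining 2 non-ribosomal genes of the 24 were Gm9843, a processed pseudogene in the annotation, and 2010107E04Rik.

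Genes named for ribosomal proteins, the protein part of the ribosome, made up 12 of the 24. They were Rpl30, Rpl34, Rpl35a, Rpl37, Rpl37a, Rpl41, Rplp1, Rplp2, Rps15a, Rps21, Rps26 and Rpl37rt, which were 24% of the 50 so named and measured in all classes. The annotation types Rpl37rt as a transcribed processed pseudogene. The 50 had a median mean ratio of 0.61. Rps21 had 392, 446, 410 and 431 CPM in PKA and 111, 151, 145 and 119 in WT, and Rpl34 had 248, 278.6, 303 and 260 CPM in PKA and 93.6, 115, 101 and 93.2 in WT. Rpl35a stood apart: WT Lumino-Basal cells had 18.7 CPM of it, against 200, 224 and 202 CPM in the other WT classes, so that its ratio was 4.28 there and 1.27 to 1.61 elsewhere. Ribosomal protein genes have many near-identical processed copies in the genome, and counts of single genes are uncertain for that reason.

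**Figure D2:**
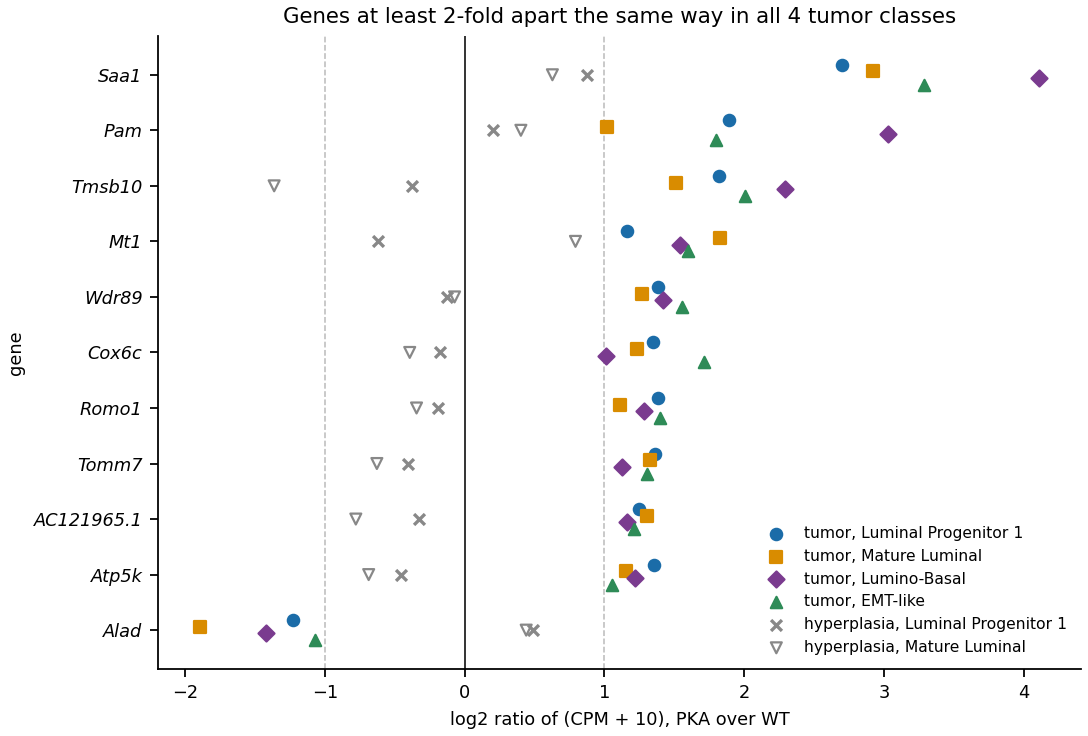
Log2 ratio of (CPM + 10), PKA over WT, of the 11 named genes at least 2-fold apart in every tumor class (colored symbols) and of the same genes in hyperplasia (gray symbols), with dashed lines at 2-fold. The tumor symbols of the 10 higher genes all lie at or right of 1.01, and none of their hyperplasia symbols lies right of 0.87.

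Alad (chr4:62509169-62519918, minus strand) encodes the delta-aminolevulinate dehydratase of heme synthesis. It was at 41.3 CPM in PKA and 110 in WT Luminal Progenitor 1 cells, 44.7 and 193 in Mature Luminal, 31.7 and 102 in Lumino-Basal, and 36 and 86.7 in EMT-like cells. WT exceeded PKA 2.67-fold (2.41 to 2.95), 4.32-fold (3.35 to 5.66), 3.20-fold (1.86 to 6.04) and 2.41-fold (1.70 to 3.48). The Lumino-Basal value rests on 13 UMIs in PKA. Every WT class was above every PKA class.

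The stretches before the start sites of Saa1, the gene with the largest mean ratio, and Alad, the lower gene, are shown because each differed the same way in all classes and CREB is a known PKA target. The sequences are the 250 bases upstream of a RefSeq start (GRCm38.p6), 5′ to 3′ on the gene's strand, with Saa1 at chr7:46742981-46743230 (minus) and Alad at chr4:62520064-62520313 (minus, the farther upstream of its 2 starts). Capitals mark matches to TTGCNNAA, a C/EBP motif, in Saa1 and to TGACG, the core of the cAMP response element, in Alad, where it reads on the opposite strand.
Saa1: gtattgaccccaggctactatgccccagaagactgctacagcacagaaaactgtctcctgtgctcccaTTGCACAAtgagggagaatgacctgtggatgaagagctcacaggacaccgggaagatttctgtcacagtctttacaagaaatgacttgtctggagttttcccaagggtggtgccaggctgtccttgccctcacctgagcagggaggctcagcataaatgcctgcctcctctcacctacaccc
Alad: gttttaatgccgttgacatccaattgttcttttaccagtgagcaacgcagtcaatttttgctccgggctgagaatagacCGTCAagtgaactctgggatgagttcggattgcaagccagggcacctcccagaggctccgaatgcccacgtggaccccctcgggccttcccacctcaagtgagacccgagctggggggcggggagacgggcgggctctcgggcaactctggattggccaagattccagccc
RefSeq entries were found for 8 of the 11 named genes, and both strands were searched. TGACGTCA, the full cAMP response element, was in none of them and in 1.55% of all 32851 windows of that length. TGACG, which any full element also contains, was in Mt1 and at 1 of the 2 Alad starts, and in 17.8% of all windows. TTGCNNAA was in Saa1 alone of the 8 and in 9.56% of all windows. The metal response core TGCNCNC was in 7 of the 8 genes and in 44.4% of all windows. A match describes these letters only.

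The same genes were then examined in hyperplastic glands at 8 to 9 weeks, libraries that the choice of genes had not used. All 24 were measured there and 0 were at least 2-fold higher in PKA, beside 0.546% of the 3115 genes measured in Luminal Progenitor 1 and 3.07% of the 3350 in Mature Luminal cells. Their median log2 ratio was -0.24 in Luminal Progenitor 1 and -0.40 in Mature Luminal cells, against -0.02 and -0.07 for all genes. Saa1 had 6344 CPM in PKA and 3461 in WT Luminal Progenitor 1 cells of hyperplasia, a ratio of 0.87, and 203 and 128 CPM in Mature Luminal cells (0.63). Tmsb10 went the other way, with ratios of -0.38 and -1.36, and Alad was at 0.49 and 0.44. Whether the tumor and hyperplasia ratios differ could not be tested with 1 library per group.

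The 24 genes had a median annotated transcript length of 601.25 bases (20 had a length), against 1888 bases for all genes measured in the 4 classes. Among the 68 genes under 600 bases that do not encode ribosomal proteins, the median log2 ratio was 0.70 in Luminal Progenitor 1, 0.56 in Mature Luminal, 0.46 in Lumino-Basal and 0.60 in EMT-like cells. The longer bins lay between -0.22 and 0.20, and short genes had -0.12 in Luminal Progenitor 1 cells of hyperplasia. For the 12 non-ribosomal genes alone a length check is void, since 75% have a length. In an alternative added after the data were seen, each ratio was centred on the median of its length bin. It gave 17 genes higher in every class and 2 lower, and the 17 included genes outside the 24. All 10 genes of the 24 under 600 bases, Tmsb10 among them, fell below 2-fold in Mature Luminal cells, where their bin median was 0.63. Genes without a length were not centred and kept their ratios.

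Genes of chromosome 11 were lower as a group. Its 245 genes measured in all classes had median log2 ratios of -0.41 in Luminal Progenitor 1, -0.14 in Mature Luminal, -0.58 in Lumino-Basal and -0.42 in EMT-like cells. By their mean ratio over the classes, 219 of the 245 (89.4%) were below 0, against 56.5% of the 2314 genes elsewhere. Cut into 5 parts by position, the chromosome had medians between -0.42 and -0.30 all along. It held 94 of the 306 genes lower in Lumino-Basal cells (30.7%, beside 9.73% of measured genes) and 13 of the 54 lower in Luminal Progenitor 1 cells (24.1%, beside 9.58%). In hyperplasia Luminal Progenitor 1 cells its median was 0.02. The level relative to hyperplasia was 0.29 in WT and -0.03 in PKA Luminal Progenitor 1 cells (199 genes, centred on all genes). Other chromosomes ran from -0.25 (chromosome 1) to 0.22 (chromosome 17) in WT. In PKA they ran from -0.14 (chromosome 18) to 0.17 (chromosome 9). Which library the chromosome 11 difference lies in was not tested. Set against single WT clusters of the authors, PKA Luminal Progenitor 1 cells had a centred chromosome 11 median of -0.41 against cluster 5 (1556 cells), -0.12 against cluster 6 and -0.02 against cluster 7. Copy number was not measured. Chromosome 17 had -0.30, -0.15, 0.03 and -0.38 (146 genes).

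**Figure D3:**
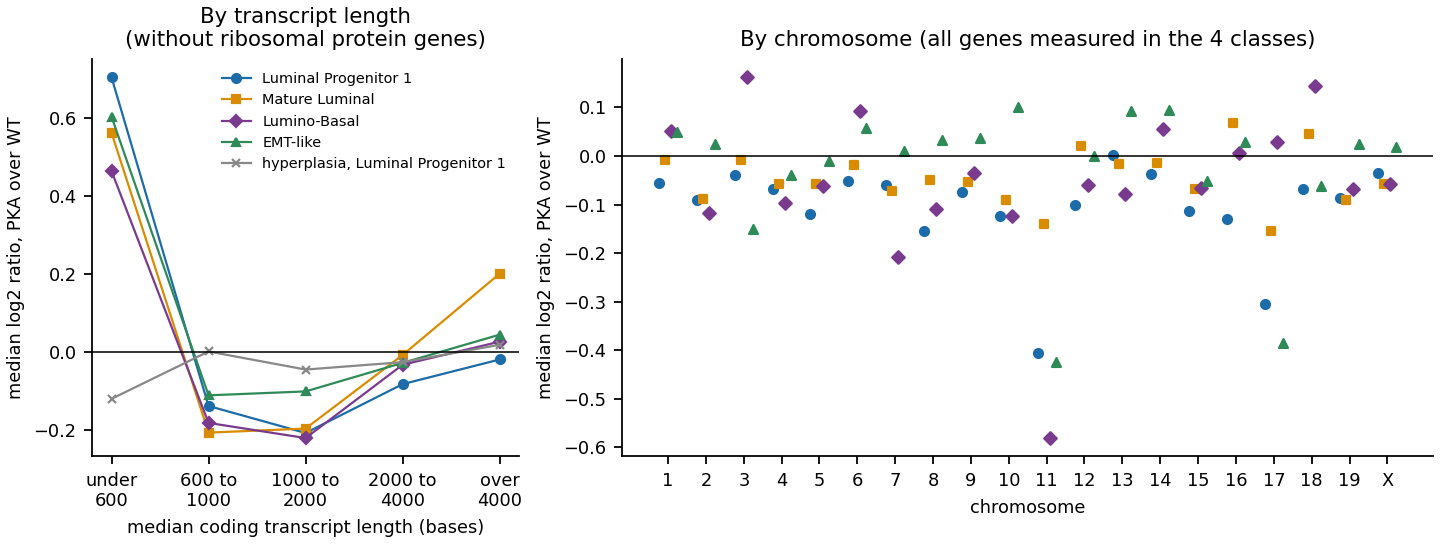
Median log2 ratio of (CPM + 10), PKA over WT, by annotated transcript length in bases for genes other than ribosomal protein genes (left) and by chromosome (right), with 1 symbol per class. Genes under 600 bases lie between 0.46 and 0.70 in the tumor classes, and chromosome 11 lies lowest in Luminal Progenitor 1, Lumino-Basal and EMT-like cells.

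The set of shared genes grew when the threshold or the classes were relaxed. At 1.5-fold, a threshold added after the data were seen, 70 genes were higher (2.71%) and 8 lower (0.309%) in every class. Smim22, a small membrane protein, came nearest among the added higher genes, with a smallest class ratio of 0.995. Plb1, a phospholipase, was the nearest among the added lower genes, with 197 CPM in PKA and 525 in WT Luminal Progenitor 1 cells, 130 and 253 in Mature Luminal, 278 and 942 in Lumino-Basal, and 103 and 728 in EMT-like cells. Its ratio missed 2-fold in Mature Luminal cells alone, at -0.91. Ly6d, a GPI-anchored surface protein, averaged -1.40, and its Lumino-Basal ratio of -1.41 was -0.31 in cluster 11. Without the Mature Luminal class the counts were 42 higher and 17 lower of 2841. Leaving out Luminal Progenitor 1, Lumino-Basal or EMT-like cells in place of it gave 25, 33 and 31 higher genes and 1 lower gene each.

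With Mature Luminal cells left out, the shared genes included parts of the Notch and antigen-presentation machinery. Hes1, a Notch target repressor, had 911 CPM in PKA and 2394 in WT Luminal Progenitor 1 cells (log2 ratio -1.38), -1.29 in Lumino-Basal and -1.33 in EMT-like cells, and -0.17 in Mature Luminal cells. Notch2, a Notch receptor, was higher, with ratios of 1.12, 2.07 and 1.15, and 0.56 in Mature Luminal cells. B2m, the light chain of MHC class I, had 5534 CPM in PKA and 2730 in WT Luminal Progenitor 1 cells, 6583 and 929 in Lumino-Basal and 8868 and 4153 in EMT-like cells. In Mature Luminal cells B2m was lower in PKA, at 2134 against 3296 CPM. Npy, the secreted neuropeptide Y, had ratios of 2.60, 5.75 and 2.17, with 569 CPM in PKA and 0.749 in WT Lumino-Basal cells.

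Genes that differed in a single class were defined as at least 2-fold apart in that class and within 0.5 on the log2 scale in each of the other 3. This is a rule of size, and the difference between classes was not tested. It gave 2 genes in Luminal Progenitor 1 (0.0593% of measured genes), 31 in Mature Luminal (0.861%), 204 in Lumino-Basal (5.45%) and 6 in EMT-like cells (0.178%). The Lumino-Basal class had the fewest cells and UMIs in PKA, and the part of this in its count was not tested.

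In Luminal Progenitor 1 cells Hey1, a Notch target repressor like Hes1, had 276 CPM in PKA and 575 in WT (2.08-fold lower, 2.00 to 2.17). In EMT-like cells Hey1 was at 435 and 484 CPM, and in Lumino-Basal cells of cluster 11 it had a ratio of 0.80, outside the 0.5 range.

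In Mature Luminal cells 21 of the 31 genes were higher in PKA and 10 lower, and 25 of the 31 were not measured in all 4 classes, so that a small ratio elsewhere can come from a low level. With Lumino-Basal cells limited to cluster 11, 22 of the 31 still met the rule. Several named genes did not, with Lumino-Basal ratios there of 1.94 for Crabp2, 1.49 for Krt6a, -1.21 for Dusp10, -0.66 for Foxp1, -0.58 for Sox4 and 0.58 for Lcn2. Sox4, a transcription factor of progenitor cells and one of the authors' EMT-like markers, had 1254 CPM in PKA and 440 in WT (2.85-fold, 2.68 to 3.04). Crabp2, which carries retinoic acid to the nucleus, had 113 and 25.6 CPM (4.42-fold, 3.48 to 5.62). Lcn2, the iron-siderophore binding lipocalin, had 1700 and 781 CPM here and 17923 and 16159 CPM in Luminal Progenitor 1 cells. Foxp1, a forkhead transcription factor, had 284 and 128 CPM, and Mast4, a kinase, 110 and 43.4 CPM. Dusp10, a phosphatase of stress-activated kinases, had 230 and 55.3 CPM, and Krt6a, a stress keratin, 251 and 61.1 CPM. Snap25, a vesicle fusion protein, had 95.6 and 5.12 CPM, with 47.4% of its PKA UMIs in 5 cells.

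Of the 10 genes lower in Mature Luminal cells of the PKA library, 0 were measured in all 4 classes. Calca, the precursor of calcitonin and CGRP, had 2.09 CPM (3 UMIs) in PKA and 112 CPM (546 UMIs) in WT, 53.4-fold lower (18.2 to 260). Sftpc, a surfactant protein, had 6.28 and 121 CPM, and Aoc1, a diamine oxidase, 12.6 and 121 CPM. Crabp1, a cytoplasmic retinoic acid binder, had 50.3 and 298 CPM (5.93-fold lower, 4.68 to 7.62), while Crabp2 was higher. Ido1, which breaks down tryptophan, had 105 and 467 CPM (4.43-fold lower, 3.76 to 5.26).

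Mature Luminal cells fell into clusters 6 and 15 in both libraries, and the 31 genes were followed in each. In cluster 6, 24 were at least 2-fold apart the same way, in cluster 15, 18 were, and in both, 12 were. Sox4 had log2 ratios of 1.35 and 1.70 in clusters 6 and 15, Dusp10 1.91 and 1.75, Krt6a 1.69 and 1.39, Foxp1 1.08 and 1.01, and Crabp1 -1.53 and -1.95. Other genes passed 2-fold in cluster 6 but not in cluster 15. Calca had -4.05 and 0.00 (0 UMIs in cluster 15), Aoc1 -3.08 and 0.22, Snap25 2.99 and -0.06, and Crabp2 2.12 and 0.38. Sftpc had 0.09 in cluster 6 and -3.34 in cluster 15.

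In Lumino-Basal cells 81 genes were higher in PKA and 123 lower, of which 110 were measured in all 4 classes. Within cluster 11 (47 PKA and 198 WT cells) 101 of the 204 stayed at least 2-fold apart the same way and 194 kept the sign, and 85 of the 204 still met the single-class rule. Of the genes higher in the class, 41 of 81 stayed past 2-fold, and of those lower 60 of 123. The 12 fibroblast markers summed to 201 CPM in PKA and 356 in WT in the cluster. Of these, Gsn had 100 and 286 CPM and Postn 77.2 and 59.6 CPM, while Dcn had 0 UMIs in PKA and 3 in WT, Mgp 6 and 4, and Col1a1, Col1a2 and Col3a1 none.

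Genes higher in Lumino-Basal cells included surface and matrix proteins. Itgb3, the integrin beta 3 chain, had 112 CPM in PKA and 1.65 in WT (68.2-fold, 34.8 to 146), and its ratio was 4.01 in cluster 11. Cd200, an immune-inhibitory surface ligand, had 173 and 9.14 CPM (19.0-fold, 13.3 to 27.2; cluster ratio 3.55). Timp1, an inhibitor of matrix metalloproteases, had 129 and 4.49 CPM (28.8-fold, 18.1 to 46.7; cluster ratio 3.07). The ubiquitin-like modifier Ubd had 50 UMIs in PKA and 1 in WT (815-fold, 140 to 32822), 74.0% of them in 5 cells, and Ctla2a, a cysteine protease inhibitor, 56 and 6 UMIs. Lurap1l had 466 and 99.4 CPM, and Las1l, a ribosome biogenesis factor, 386 and 89.9 CPM, with cluster ratios of 1.69 and 1.54. Tm4sf1, a tetraspanin-like surface protein, had 3149 and 620 CPM (5.08-fold, 4.77 to 5.41), but a ratio of 0.76 in cluster 11.

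Genes lower in Lumino-Basal cells of the PKA library included milk and cornified-epithelium genes, and most of these depended on which cells were compared. Csn3, the milk protein kappa casein, had 2253 CPM in PKA and 9229 in WT (4.10-fold lower, 3.84 to 4.38), and -0.86 in cluster 11. Wap, whey acidic protein, had 0 CPM in PKA and 136 in WT (at least 18.6-fold lower) and -0.64 in the cluster. Crct1, a gene of cornifying epithelium, had 0 UMIs in PKA and 1351 in WT (at least 27.6-fold lower), but no UMI in either library within cluster 11. Spink12, a protease inhibitor, had 0 CPM in PKA and 175 in WT (at least 23.9-fold lower; cluster ratio -1.70), and Klk10, a kallikrein, 17.1 and 384 CPM (cluster ratio -1.49). Folr1, a folate receptor, had 26.8 and 201 CPM (cluster ratio -0.72). Abhd11, a mitochondrial hydrolase, and Pgap2, a GPI-anchor enzyme, kept more of their difference, at -1.85 and -1.69 in the class and -1.70 and -1.69 in the cluster. Pamr1, a secreted protease-like protein, was at -2.59 in the class and -4.10 in the cluster.

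In EMT-like cells Mgll, a lipase, had 82.1 CPM in PKA and 22.9 in WT (3.59-fold, 2.54 to 5.11). Cp, the copper protein ceruloplasmin, had 518 and 1218 CPM (2.35-fold lower, 2.15 to 2.58). The stress-response genes Atf3 and Ier5 had 435 and 978 CPM and 269 and 588 CPM. Cytip, a cytohesin-binding protein, had 47.1 and 148 CPM (3.15-fold lower, 2.35 to 4.31).

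Gene lists were followed over the classes by their counts and medians. The 21 measured nuclear genes of the respiratory chain had median log2 ratios of 0.62, 0.48, 0.23 and 0.72 in Luminal Progenitor 1, Mature Luminal, Lumino-Basal and EMT-like cells, beside -0.12, -0.03, -0.05 and -0.03 for all genes. Genes under 600 bases other than ribosomal protein genes had 0.70, 0.56, 0.46 and 0.60 in the same order. The part of transcript length in the values of this list was not tested. At least 2-fold higher were 5, 3, 2 and 6 of them, beside 2.55, 3.03, 7.67 and 3.71% of all measured genes. Above 0 in every class were 14 of the 21, beside 14.8% of the genes measured in all classes. Atp5e, a subunit of ATP synthase, had ratios of 1.17, 1.0, 0.96 and 1.19 (1.28 in cluster 11), and Uqcrb, a subunit of complex III, 1.08, 0.86, 1.13 and 1.06. Sdhb, a subunit of complex II, was below 0 in every class (-0.29, -0.46, -0.52 and -0.33). Within cluster 11 the list's median was 0.75, with 8 of 21 at least 2-fold higher, beside 6.41% of all genes there.

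The genes of the PKA pathway itself had medians near 0. The measured members of the PKA pathway list (6 to 8 per class) had medians of -0.03, 0.04, 0.14 and 0.08. Prkaca, the main catalytic subunit, had 77.9 CPM in PKA and 79.7 in WT Luminal Progenitor 1 cells, 67.7 and 68.8 in Mature Luminal, 75.7 and 74.0 in Lumino-Basal, and 74.8 and 66.2 in EMT-like cells. The 4 intervals for Prkaca all included equality, the widest running from 0.687-fold to 1.47-fold in Lumino-Basal cells. Prkar1a, a regulatory subunit that holds the kinase inactive, had 274 and 429 CPM in Luminal Progenitor 1 cells (1.57-fold lower, 1.5 to 1.64), and ratios of -0.16, -0.19 and -0.47 in the other classes. Prkar2b, another regulatory subunit, was higher in Mature Luminal cells (219 and 89.7 CPM) and lower in EMT-like cells (36 and 85.4 CPM). Of the cAMP phosphodiesterases, which degrade cAMP, Pde4d had 574 and 192 CPM in EMT-like cells (log2 ratio 1.53), 0.86 in Luminal Progenitor 1 and -0.93 in Lumino-Basal cells. Pde4b had 217 and 54.4 CPM in Lumino-Basal cells (1.82), 0.68 in Luminal Progenitor 1 and 0.42 in EMT-like cells. In Mature Luminal cells both were below the minimum level, as were Pde7a and Pde8a in every class.

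Genes known as CREB targets had medians below 0 in 3 of the 4 classes. These were -0.34 in Luminal Progenitor 1 (12 measured), 0.33 in Mature Luminal (7), -0.89 in Lumino-Basal (11) and -0.44 in EMT-like cells (10), with -0.53 in cluster 11 (11 measured). Pde4d in EMT-like cells was the single member at least 2-fold higher in any class. Tob1, an antiproliferative protein, was at least 2-fold lower in 3 classes, with ratios of -1.29, -1.41 and -1.14, and at 0.12 in Mature Luminal cells. In cluster 11 Tob1 missed 2-fold, at -0.97. Nr4a2, an orphan nuclear receptor, had -1.50 in Luminal Progenitor 1 and -1.58 in EMT-like cells. Dusp1, a MAP kinase phosphatase, had 676 CPM in PKA and 2076 in WT EMT-like cells (-1.61).

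Targets of p53 had medians of -0.62, -0.10, -0.25 and -0.95 (7 or 8 measured). Cdkn1a, the cell-cycle inhibitor p21, had 179 CPM in PKA and 574 in WT Luminal Progenitor 1 cells (3.21-fold lower, 3.07 to 3.37) and 71.1 and 358 CPM in EMT-like cells (5.03-fold lower, 3.98 to 6.44). In Mature Luminal cells it had 376 and 303 CPM, and in Lumino-Basal cells 561 and 615 CPM. Within cluster 11 Cdkn1a was at least 2-fold lower, at 370 and 783 CPM (-1.06), and the list had a median of -0.57 with 3 of 8 at least 2-fold lower, beside 6.55% of all genes there. Bax, which promotes apoptosis, was below 0 in every class (-0.67, -0.51, -0.90 and -0.80), as were Ccng1, a cyclin, and Phlda3, an inhibitor of AKT.

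MHC class I and peptide-loading genes split by class. Their 14 measured members had medians of 0.24, -0.39, 1.51 and 0.27 in Luminal Progenitor 1, Mature Luminal, Lumino-Basal and EMT-like cells. In Lumino-Basal cells 9 of the 14 were at least 2-fold higher, beside 7.67% of all measured genes. In cluster 11 alone 8 of 14 were (6.41% of all genes there), with a median of 1.21, and B2m had a ratio of 1.91 and H2-K1, a heavy chain, 1.44. In Mature Luminal cells the peptide transporter Tap2 had 132 CPM in PKA and 397 in WT (3.01-fold lower, 2.59 to 3.51), and the immunoproteasome subunit Psmb8 had a ratio of -1.02. H2-Q6 and H2-Q7 were also higher in 3 classes but are near-identical copies, so their separate counts are uncertain. Interferon-response genes had medians of 0.48, 0.16, 1.3 and 0.47, with 8 of 12 at least 2-fold higher in Lumino-Basal cells, beside 7.67% of all genes. Within cluster 11, 0 of 14 measured interferon-response genes were, with a median of 0.01, and Isg15 went from 1.43 in the class to -0.63.

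Genes of protein folding in the endoplasmic reticulum had medians of -0.35, -0.51, -0.18 and -0.04, with 0.01 in cluster 11, and Hspa5, Canx, Xbp1 and Herpud1 were below 0 in every class. Xbp1, the transcription factor of that response, had 337 CPM in PKA and 2256 in WT Lumino-Basal cells (6.70-fold lower, 5.66 to 7.98; -1.53 in cluster 11). Matrix genes had a median of 2.04 in Lumino-Basal cells (8 measured) but 0.36 in cluster 11 (9 measured), where Tnc, the matrix protein tenascin C, kept a ratio of 3.45. Milk genes had a median of -1.87 in Lumino-Basal cells and -0.45 in cluster 11. Lalba, a subunit of lactose synthase and a progenitor marker of the authors, was higher in 3 classes, with 3526 CPM in PKA and 994 in WT Luminal Progenitor 1 cells, 133 and 25 in Mature Luminal, and 6911 and 1607 in EMT-like cells, and had a ratio of -0.19 in Lumino-Basal cells. Within cluster 11 Lalba was higher as well, at 65.6 and 11.3 CPM (1.83, on 17 and 10 UMIs). Csn1s1, an alpha casein, went the other way, with 27.3 and 159 CPM in Luminal Progenitor 1 cells.

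**Figure D4:**
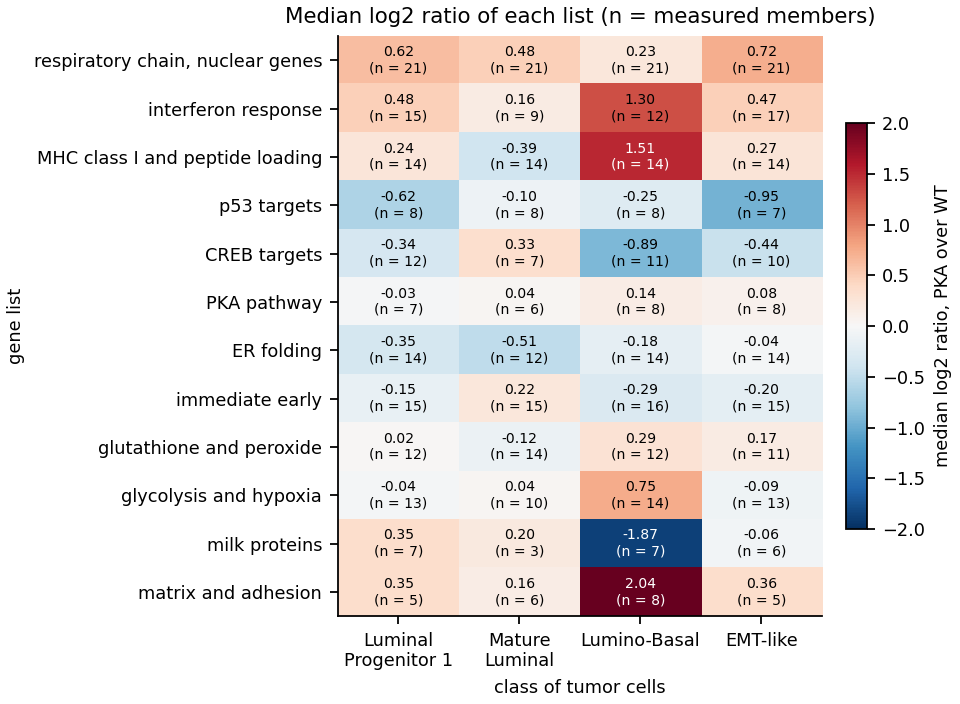
Median log2 ratio of (CPM + 10), PKA over WT, of the measured members of 12 gene lists in the 4 tumor classes, printed with the number of measured members and shown as color. The respiratory chain list is above 0 in every class, and the milk and matrix lists reach -1.87 and 2.04 in Lumino-Basal cells.

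Some genes were at least 2-fold apart in opposite ways in 2 classes. There were 28 such genes of the 3742 measured in at least 2 classes (0.748%). Spp1, the secreted phosphoprotein osteopontin, had 3200 CPM in PKA and 176 in WT Lumino-Basal cells (18.1-fold, 16.8 to 19.6), and 1220 and 5341 CPM in EMT-like cells (4.38-fold lower, 4.14 to 4.64). Its Lumino-Basal difference was also present in cluster 11, at 3.60. Dmkn, the epidermal protein dermokine, had 356 and 62.7 CPM in Luminal Progenitor 1 cells and 571 and 1609 CPM in Lumino-Basal cells, with -3.18 in cluster 11. Cst3, the protease inhibitor cystatin C, was lower in Luminal Progenitor 1 cells (364 and 1464 CPM), while 5 cells held 90.9% of its UMIs in PKA Lumino-Basal cells.

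The equal weighting changed the reading of several genes. Over all cells together Klk6, a kallikrein of Lumino-Basal cells, had a log2 ratio of -4.77, against a mean of -1.44 over the classes. In Lumino-Basal cells, the only class where Klk6 was measured, the ratio was -3.02. Upk3a, an uroplakin found in Mature Luminal cells, had -3.80 together and -1.16 as the class mean, with 184 CPM in PKA and 1753 in WT Mature Luminal cells. Mature Luminal was the only class where Upk3a was measured, with a ratio of -3.18. The class means of Klk6 and Upk3a take in smaller ratios from classes below the minimum level. Stc2, the secreted stanniocalcin 2, and Klk8 even changed sign, from -2.29 to 0.29 and from -2.45 to 0.24, although both were lower in PKA in the class where they were measured (-1.83 in Mature Luminal and -1.52 in Lumino-Basal cells). Within cluster 11 Klk8 turned to 174 CPM in PKA and 30.4 in WT (2.19, on 45 and 27 UMIs). These class means above 0 come from classes where the genes were below the minimum level: with 50 CPM added they were -0.13 for Stc2 and -0.10 for Klk8, and the ratio of the mean class CPM was -1.49 and -0.996. Ltf, the iron binder lactoferrin, went the other way, from 0.24 together to -1.03, with 0.77 in Luminal Progenitor 1, -3.15 in Lumino-Basal and -2.43 in EMT-like cells. Saa1 had 3.45 together and 3.26 as the class mean.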

How the data were processed

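Per the labels, the 2 tumor libraries were made with the Chromium 3' v2 kit. Per the submitters' processing notes, reads were handled with STAR 2.5.3a, featureCounts (Subread 1.6.0) and Cell Ranger on GRCm38/mm10, with no annotation release stated. The authors deposited raw UMI counts per gene and barcode. Per-cell tables deposited by the authors give the mitochondrial UMIs as a fraction of all UMIs of a cell. They also give UMI and gene counts and a cell class, which per the series design was assigned with Monocle2 from markers.

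Of 2934 PKA and 5800 WT barcodes, the 2638 and 5181 annotated ones were used, and barcodes without an annotation were left out. Mitochondrial UMIs reached 23.4% and 19.8% of a cell. A gene missing from a file counted as 0, and 24673 genes were in both. No doublet caller was run, and the deposit does not say whether doublets were removed. An alternative leaves out the 5% of cells with the most UMIs in each class. UMIs were summed per class and library and scaled to CPM. Log2 ratios used 10 CPM added, and fold differences of CPM carry exact conditional binomial 95% intervals. Intervals of cell shares are exact Clopper-Pearson ones. Where a class had no UMI, the bound uses 3 UMIs in that class of that library. Equal weight is the mean of the 4 class log2 ratios.

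Named genes were chosen by size of ratio within each category. Mitochondrial, ribosomal protein, haemoglobin, sex-linked and predicted genes and non-epithelial markers were left out of that choice, and members of the gene lists could be named as well; ribosomal protein genes were named after their values were seen. The comparison, members and lists were chosen with earlier results of these data known. Clusters came from 2000 variable genes, 30 components, 15 neighbours and resolution 1. Gene positions and lengths came from the GRCm38 annotation and promoters from RefSeq. Alternatives were other added CPM, minimum levels, scalings, cell filters, free-RNA subtraction, class definitions and quiet ranges. The scripts were tested on simulated data. The tools were scanpy 1.11.5, pandas 2.3.3, SciPy 1.17.1, NumPy 2.4.6, matplotlib 3.10.9 and scikit-learn 1.9.0 in Python 3.11.15. TMM factors were computed by edgeR 4.0.16 (R 4.3.3). Some genes that met a rule are counted but not reported here.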

Additional observations from a re-analysis of the deposited data

Results flagged for a closer look

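The 8 genes with the widest opposite differences are listed here because their log2 ratios of (CPM + 10), PKA over WT, passed 2-fold upward in a class and downward in another. With 1 library per group the difference between the classes was not tested. Scgb1b27, a secretoglobin, had 1.34 in Luminal Progenitor 1 and -6.18 in EMT-like cells, and 5 cells held 97.8% of its UMIs in PKA Luminal Progenitor 1 cells. Spp1 had 4.11 in Lumino-Basal and -2.12 in EMT-like cells. Cst3 had 3.41 in Lumino-Basal and -1.98 in Luminal Progenitor 1 cells, and 0.68 among Lumino-Basal cells of cluster 11. Cpm, the gene of carboxypeptidase M, had 1.59 in Lumino-Basal and -2.66 in EMT-like cells, and 0.26 in cluster 11. Igfbp7, a secreted binder of growth factors, had 3.16 in Lumino-Basal and -1.07 in Mature Luminal cells, and 2.17 in cluster 11. Pgf, a growth factor of the VEGF family, had 1.83 in Lumino-Basal cells, on 38 UMIs from 7 PKA cells, and -2.17 in Luminal Progenitor 1 cells, with -0.45 in cluster 11. Bhlhe41, a clock-related repressor, had 2.79 in Lumino-Basal and -1.20 in EMT-like cells, and 2.10 in cluster 11. Dmkn had 2.33 in Luminal Progenitor 1 and -1.48 in Lumino-Basal cells.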

How the results depend on the processing

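No paired analysis was possible because each group had 1 library and its replicate number is only a name. Counts of 24 genes higher and 1 lower in every class, and of 2, 31, 204 and 6 apart in Luminal Progenitor 1, Mature Luminal, Lumino-Basal and EMT-like cells alone, moved by over 1.5 times under these settings. The causes were not tested. With 1 CPM added, Luminal Progenitor 1 gave 4 and Mature Luminal 19 genes; with 50 CPM added, 12 genes were higher and 0 lower in every class, and EMT-like gave 10. A minimum of 20 CPM gave 4 lower in every class, 63 in Mature Luminal, 380 in Lumino-Basal and 22 in EMT-like cells, and a minimum of 100 CPM gave 0 lower, 16 in Mature Luminal and 91 in Lumino-Basal cells. TMM factors gave 12 higher and 2 lower. Centring on the class median gave 1 gene in Luminal Progenitor 1, the mean of each cell's CPM gave 2 lower, and leaving out the 5% of cells with the most UMIs gave 4 in Luminal Progenitor 1. Subtracting 10% of the library profile gave 1 in Luminal Progenitor 1 and 10 in EMT-like cells. A quiet range of 0.75 gave 10, 50, 344 and 34 genes in the 4 classes. Without Mature Luminal cells 42 were higher and 17 lower. Leiden clusters in place of classes gave 12 higher and 0 lower, over 6 clusters that leave out most Lumino-Basal cells and most WT EMT-like cells; of the 24 higher genes 24 were above 0 and 10 at least 2-fold higher in all 6. Chosen after seeing the data were length-bin centring (2 lower, 0 in Luminal Progenitor 1, 10 in EMT-like), Lumino-Basal cells of cluster 11 only (0 lower, 1 in Luminal Progenitor 1) and the 1.5-fold threshold (70 higher, 8 lower). For named genes whose mean class ratio was at least 2-fold, 0 values changed sign. Over all named genes 936 values lay within the counting error of the value reported and 168 moved further. For lists 236 medians lay within 0.1 and 63 moved further. The minimum levels of 20 and 100 CPM do not enter a gene's mean ratio. Their gene values, among the 936 and among those checked for sign, could not move. Where a class had 0 UMIs in a library, a fixed wide interval stood for the counting error. Stc2 and Klk8, with mean ratios of 0.29 and 0.24, changed sign with 50 CPM added (-0.13 and -0.10). Depth limits Lumino-Basal genes most, where 1 PKA UMI is 2.44 CPM.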

Other observations

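The list of secretoglobins and whey acidic proteins, secreted proteins of epithelia, had 13 members, of which 6, 4, 5 and 6 were measured in Luminal Progenitor 1, Mature Luminal, Lumino-Basal and EMT-like cells. At least 2-fold higher in PKA were 4, 3, 3 and 0 of them and lower 1, 0, 2 and 3, and differences between classes were not tested. Of all measured genes, 2.55, 3.03, 7.67 and 3.71% were higher and 1.6, 1.42, 8.18 and 2.82% lower. Within Lumino-Basal cells of cluster 11, 1 of 4 was higher and 1 lower, beside 6.41% and 6.55% of all genes there. Slpi, a leukocyte protease inhibitor, had log2 ratios of (CPM + 10), PKA over WT, of 1.84 in Luminal Progenitor 1, 2.17 in Mature Luminal and 1.74 in Lumino-Basal cells, and -0.43 in EMT-like cells, with 0.94 in cluster 11. Wfdc12, of the same protein family, had 1.98, 2.14, 5.61 and -0.94, with 791 CPM in PKA and 6.44 in WT Lumino-Basal cells. Wfdc18, also of that family, had 1.53, 1.29, -1.60 and 0.58. Scgb2b27, a secretoglobin, was lower in PKA, with -2.16 in Luminal Progenitor 1, -2.84 in Lumino-Basal and -4.84 in EMT-like cells, but -0.16 in cluster 11 (6 and 24 UMIs). Hp, the haemoglobin binder haptoglobin, had 60.6 CPM in PKA and 248 in WT Luminal Progenitor 1 cells and 4.61 and 152 CPM in EMT-like cells, while Saa1, an acute-phase gene like it, was higher in both. Saa2 had 1381 CPM in PKA and 119 in WT Luminal Progenitor 1 cells, with the same uncertainty over reads shared with Saa1.

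Chil1, a secreted chitinase-like protein, was higher in PKA in every class but missed 2-fold in Luminal Progenitor 1 cells, with ratios of 0.94, 3.28, 3.44 and 1.92. The epidermal kallikrein list had a median of -2.75 in Lumino-Basal cells. There 8 of 10 measured members were at least 2-fold lower in PKA, beside 8.18% of all measured genes. Of these, Klk6 had 67 UMIs in PKA, all from 3 cells, and 9349 UMIs in WT. In cluster 11, 5 of 6 measured members were lower and Klk8 was higher, beside 6.55% and 6.41% of all genes there. Gpx3, a secreted glutathione peroxidase and a Mature Luminal marker of the authors, had 478 CPM in PKA and 1923 in WT Mature Luminal cells (4.03-fold lower, 3.73 to 4.36). The iron-siderophore binder Lcn2 had log2 ratios near 0 in Luminal Progenitor 1 and EMT-like cells, at 0.15 and 0.16.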
